A study of Mus musculus with 8 samples.

Results

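The genes described here are 9 transcription factors that set and hold epidermal fate: Trp63, Klf4, Klf5, Grhl1, Grhl2, Grhl3, Ovol2, Tfap2a and Tfap2c. They were taken by symbol from the 3 deposited tables of gene expression and are 9 of 20137 genes named in all 3. In 2 of the tables Tfap2a and Tfap2c are listed under their older symbols, Tcfap2a and Tcfap2c. All 9 had a mean of at least 1 FPKM in every table (fragments per transcript length and library size), so none was lost to the filter on low values.

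The series sequenced RNA from 8 libraries of mouse hair follicle cells, of mixed strain, to ask what follows when Bmpr1a, which encodes a receptor for bone morphogenetic proteins (BMPs), is deleted. Bulge stem cells (HFSC) of K15-CrePGR mice at postnatal day 68 gave 1 library labelled cKO and 1 labelled Het. Transit-amplifying cells (TACs) of Shh-CreER mice at day 68 also gave 1 cKO and 1 Het library, and TACs of K15-CrePGR hair bulbs at day 80 gave KO samples 64 and 84 and WT samples 52 and 57. The design text gives the deleted genotype as Bmpr1a fl/fl with either Cre, the first under a keratin 15 promoter active in the bulge and the second expressed where sonic hedgehog is, in part of the hair matrix. The labels give neither the induction of the Cre nor the full genotype of the controls. Whether samples 52, 57, 64 and 84 came from different mice is also not stated, and the p-values therefore cover the spread of these samples, which may be technical.

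The surface epithelium keeps its identity through a small circuit of such factors. Trp63 encodes p63, a relative of p53 without which stratified epithelia do not form. The Krüppel-like factors divide the work, Klf5 in dividing basal cells and Klf4 in cells that build the barrier, while the grainyhead-like factors switch on genes of cell junctions and of the cornified envelope. Ovol2 encodes a zinc finger repressor that holds back the shift to a mesenchymal state, and Tfap2a and Tfap2c encode AP-2 factors of the early surface ectoderm and of keratinocytes. BMP signalling favours epidermal over neural fate in the early ectoderm, and in the follicle it is known for stem cell quiescence and for differentiation of the hair shaft.

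Ovol2 and Grhl1 showed the largest mean differences between deleted and control libraries over the 3 tables (1.42 and 0.77 on the log2 scale, sign ignored), and their promoters are printed for that reason. The table of promoters from RefSeq, 250 bases before to 50 bases after each listed gene start in build GRCm38.p6, held 7 entries for 5 of the 9 genes (Klf4, Grhl1, Grhl3, Ovol2 and Tfap2a). The entry for Ovol2 is chr2:144331313-144331612 on the minus strand, and Grhl1 has 2, chr12:24572037-24572336 and chr12:24580469-24580768, on the plus strand. Capitals mark every match, on either strand, to the motifs searched: GCCNNNGGC (AP-2), AACCGGTT and AACNGGTT (grainyhead), GGGCGG and CACCC (Klf and Sp factors), GGCGCC (Smad1/5) and CCGTTA (Ovol).
Ovol2: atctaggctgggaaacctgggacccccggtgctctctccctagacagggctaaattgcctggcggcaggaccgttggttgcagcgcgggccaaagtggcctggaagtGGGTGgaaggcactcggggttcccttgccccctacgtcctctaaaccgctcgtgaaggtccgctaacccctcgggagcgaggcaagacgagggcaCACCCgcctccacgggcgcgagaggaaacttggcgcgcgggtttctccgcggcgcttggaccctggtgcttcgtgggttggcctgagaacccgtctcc
Grhl1, first start: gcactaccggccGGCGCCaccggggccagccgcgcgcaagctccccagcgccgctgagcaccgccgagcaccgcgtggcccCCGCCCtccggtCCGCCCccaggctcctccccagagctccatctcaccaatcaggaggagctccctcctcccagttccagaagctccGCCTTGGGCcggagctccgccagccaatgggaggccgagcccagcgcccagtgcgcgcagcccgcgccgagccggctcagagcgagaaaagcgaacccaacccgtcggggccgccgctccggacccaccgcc
Grhl1, second start: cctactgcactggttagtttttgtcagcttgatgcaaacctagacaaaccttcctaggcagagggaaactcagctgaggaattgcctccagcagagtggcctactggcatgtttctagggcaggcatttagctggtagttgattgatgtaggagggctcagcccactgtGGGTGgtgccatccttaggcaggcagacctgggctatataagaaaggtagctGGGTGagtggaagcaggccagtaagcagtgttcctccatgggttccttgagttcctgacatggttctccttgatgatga

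In these windows no matches to different motifs overlapped. The Ovol2 window held the CACCC box at positions -143 and -48 from the start and none of the other motifs. The first Grhl1 window held the AP-2 motif at -82, the GC box at -169 and -157 and the Smad1/5 motif at -238, and the second held CACCC at -81 and -29. Of all 32851 promoters of the same length, 57.5% held CACCC, 35.7% GGGCGG, 16.6% GCCNNNGGC and 11.9% the Smad1/5 motif. The Ovol motif was in 2.76%, AACNGGTT in 2.09% and AACCGGTT in 0.146%. A match is a string of letters and was not tested as a binding site.

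Some values of the whole libraries bear on what follows. Bmpr1a itself lay between 31.8 and 46.0 FPKM in all 8 libraries, and these gene-level values cannot show whether an exon was removed. Id1, Id2 and Id3, direct BMP targets, were lower in every deleted library than in the controls beside it. Bulge markers summed to 3700 FPKM in cKO and 9144 FPKM in Het HFSCs. Only 4 of 9 were at least 2-fold lower and 1 was higher (median log2 difference -0.18), against 4.6% and 5.92% of all genes. Matrix markers summed to 894 FPKM in cKO and 5464 FPKM in Het Shh-CreER TACs. Of these 6 of 10 were at least 2-fold lower (median -1.49), against 2.77% of all genes. In K15-CrePGR TACs the matrix markers summed to 1340 (KO 64), 1016 (KO 84), 3292 (WT 52) and 2640 FPKM (WT 57). Only 3 of 9 were at least 2-fold lower and 1 was higher (median -0.78), against 2.55% and 10.1% of all genes. Both KO samples lay below WT for 5 and above for 1, against 27.5% and 26.8% of all genes. No bulge marker was at 0 in HFSCs and no matrix marker in TACs. The X-inactivation RNA Xist and the Y-linked Ddx3y differed within tables. In HFSCs Xist was at 3.98 FPKM in cKO and 68.9 FPKM in Het, and Ddx3y at 23.2 and 0.255 FPKM. WT 52 had Xist at 3.26 FPKM, against 175 to 226 FPKM in the other K15-CrePGR TACs. Its Ddx3y was at 26.4 FPKM, against 0.0259 to 0.753 FPKM in those. Low Xist with high Ddx3y marks male cells, so in HFSCs a difference of sex cannot be told apart from the deletion. The part of these differences in the results was not tested. In bulk RNA, fewer cells of a type and less RNA per cell cannot be told apart.

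The 3 comparisons asked which of these factors differ when Bmpr1a is deleted in stem cells or in TACs. In HFSCs no factor differed 2-fold. In Shh-CreER TACs Tfap2c (2.78-fold on FPKM) and Ovol2 (2.19-fold) were higher in cKO, and Grhl1 was 2.23-fold lower. In K15-CrePGR TACs Ovol2 was 9.80-fold higher in KO on mean FPKM, over a low WT mean of 1.80 FPKM. Trp63 was 1.72-fold higher there, while Klf5 and Grhl1 were 1.79-fold and 1.38-fold lower. With limma and Benjamini-Hochberg adjustment over 13565 genes, none of the 9 had an adjusted p under 0.05. Of all genes, 0.0369% were called higher and 0.0295% lower (0.0663% in all).

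Read against all genes, 0 of 9 factors differed 2-fold in HFSCs, where 10.5% of 12205 genes did (5.92% higher, 4.6% lower). In Shh-CreER TACs 2 of 9 were at least 2-fold higher and 1 lower, against 2.67% and 2.77% of 12296 genes (5.43% either way). In K15-CrePGR TACs 4 of 9 (Ovol2, Trp63, Klf5 and Grhl1) had an unadjusted limma p under 0.05, 2 of them higher and 2 lower, against 17.4% of genes (10.3% higher, 7.08% lower). Only Ovol2 differed 2-fold there, against 12.7% of genes (10.1% higher, 2.55% lower). Both KO samples lay above both WT samples for 2 factors (26.8% of genes) and below for 3 (27.5%). Those 5 of 9 compare with 54.4% of genes, a share close to the background. The median difference of the 9 was -0.09 in HFSCs, 0.02 in Shh-CreER TACs and 0.10 in K15-CrePGR TACs, against 0.05, 0.01 and -0.03 over all genes. With 2 samples against 2, an exact two-sided permutation test of a single gene cannot go below p = 0.333.

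**Figure D1:**
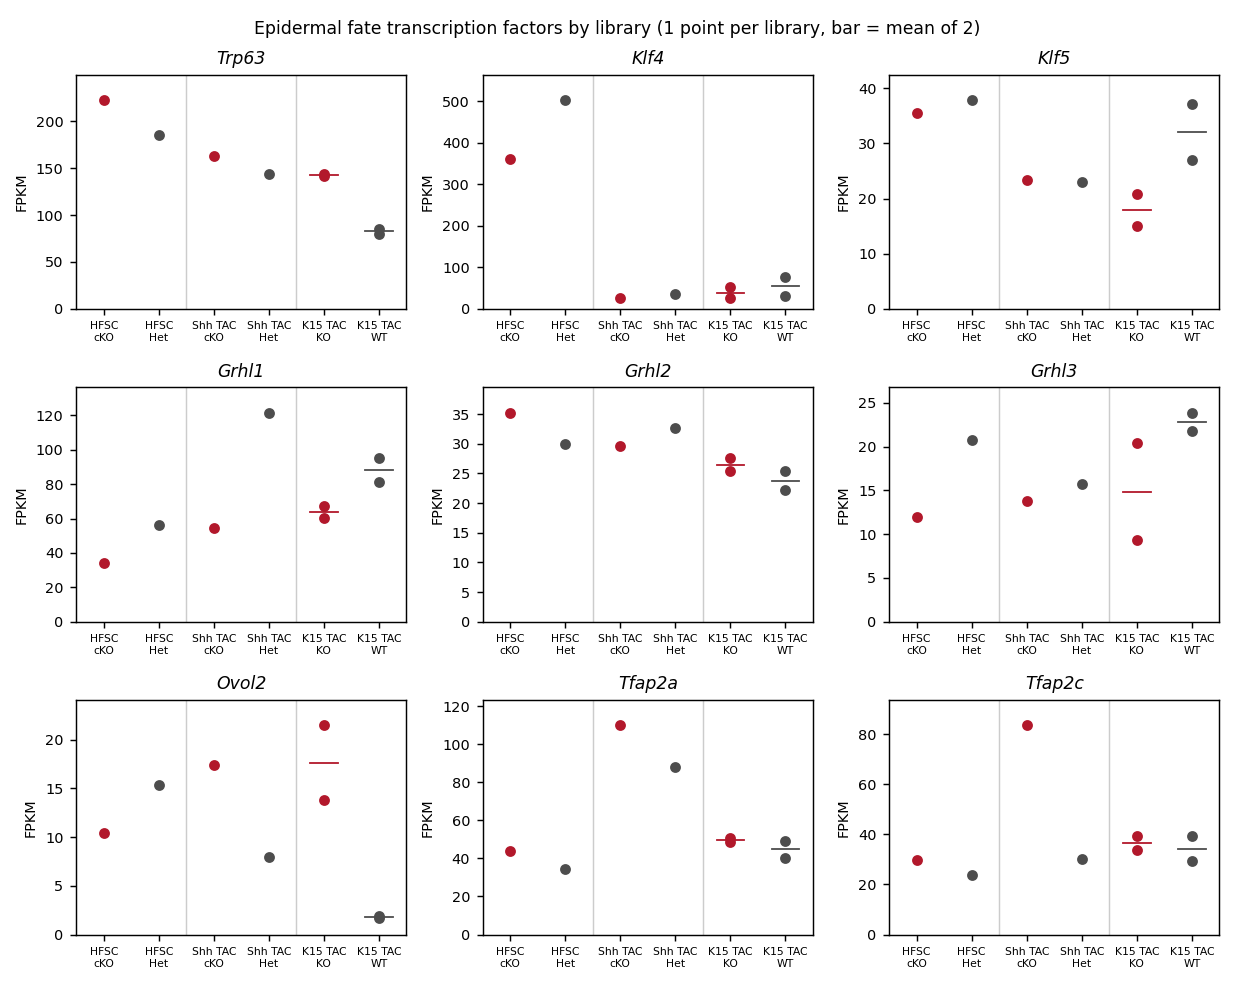
FPKM of each factor in every library, 1 point per library, deleted libraries in red left of their controls in grey, with a bar at the mean where a group has 2 libraries. Vertical lines part the 3 separately normalized tables. Ovol2 lay at 13.8 and 21.5 FPKM in the K15-CrePGR KO samples and at 1.86 and 1.74 FPKM in WT, and within HFSCs Klf4 was the highest of the 9, at 362 FPKM in cKO and 504 FPKM in Het.

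The zinc finger gene Ovol2 (mm9 chr2:144130910-144158375) had the largest difference. Its level was 13.8 and 21.5 FPKM in K15-CrePGR KO 64 and KO 84, against 1.86 and 1.74 FPKM in WT 52 and WT 57. The groups lay far apart, and the KO samples differed 1.56-fold between themselves. The log2 difference was 2.70 ± 0.26 (SE, 95% interval 2.01 to 3.39), with a limma adjusted p of 0.0866 over 13565 genes, so it did not pass the threshold. It was higher in 2 of 2 KO samples. By unadjusted p it ranked 43 of 13565, and its difference was larger than that of 99.0% of genes in size.

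In Shh-CreER TACs Ovol2 was at 17.4 FPKM in cKO against 7.95 FPKM in Het, a log2 difference of 1.04. In HFSCs the order was the other way, 10.4 FPKM in cKO against 15.3 FPKM in Het (-0.52). The value of Shh-CreER TACs sat just past 2-fold and fell inside it with a pseudocount of 5 FPKM (0.79) or quantile normalization (0.98). An antisense transcript, 1700108N11Rik, overlaps Ovol2 in GENCODE vM21. Its own entry was at 0.119 FPKM in KO 64 and listed at 0 in the other K15-CrePGR TACs. Since no source used here says that counting was stranded, reads of the pair cannot be told apart.

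Ovol1, the close relative of Ovol2 that acts in suprabasal and hair matrix cells, ran opposite to it in both TAC tables. Ovol1 was at 25.7 and 26.8 FPKM in K15-CrePGR KO, against 72.8 and 53.2 FPKM in WT (log2 difference -1.21 ± 0.20, limma adjusted p = 0.123). It was at 40.0 FPKM in cKO against 82.8 FPKM in Het Shh-CreER TACs, and at 14.9 FPKM in cKO against 33.4 FPKM in Het HFSCs. Within a library, Ovol1 exceeded Ovol2 by 1.86 and 1.25 times in K15-CrePGR KO. It did so by 39.2 and 30.5 times in WT, where Ovol2 was at only 1.86 and 1.74 FPKM. The same ratio was 2.30 in cKO and 10.4 in Het Shh-CreER TACs, and 1.44 in cKO and 2.18 in Het HFSCs. The K15-CrePGR table also holds an entry that joins Gm962 and Ovol1, at 2.42 to 6.45 FPKM, so reads of Ovol1 were split between entries there.

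**Figure D2:**
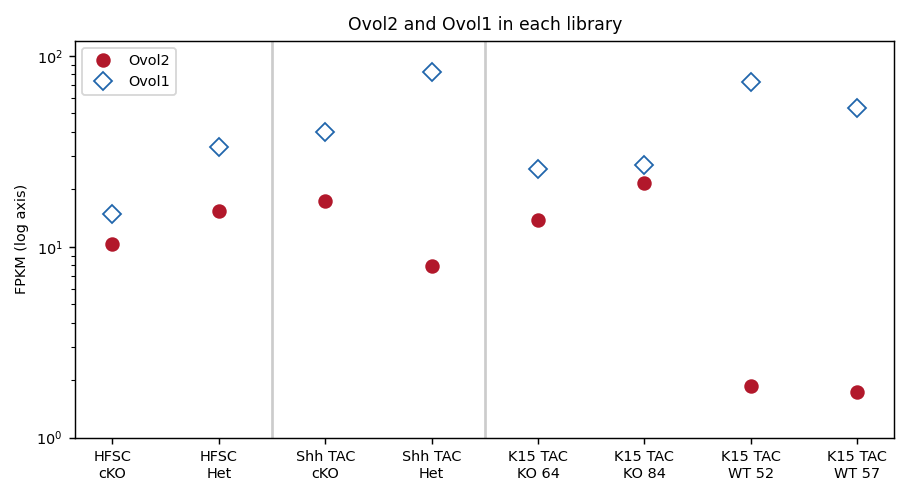
Levels of Ovol2 (filled circles) and Ovol1 (open diamonds) in each library, in FPKM on a log axis, deleted libraries left of their controls within each table. Ovol1 lay above Ovol2 in all 8 libraries, by 1.25 to 2.30 times in the 4 deleted libraries and by 2.18 to 39.2 times in the 4 controls.

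Trp63 (mm9 chr16:25683848-25892198) was among the most abundant of the 9 in every library. It had 142 and 144 FPKM in K15-CrePGR KO 64 and KO 84, against 80.2 and 85.4 FPKM in WT 52 and WT 57. The samples of each group lay within 1.06-fold of each other and the groups did not overlap. The log2 difference was 0.78 ± 0.14 (SE, 95% interval 0.39 to 1.17), higher in 2 of 2 KO samples, with a limma adjusted p of 0.139. In Shh-CreER TACs Trp63 was at 163 FPKM in cKO against 144 FPKM in Het (log2 difference 0.17). In HFSCs it was at 223 FPKM in cKO against 186 FPKM in Het (0.27). The entry joins 8 RefSeq transcripts, so the long and the short p63 forms cannot be told apart in these values.

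Among the Krüppel-like factors, Klf5 (mm9 chr14:99697826-99714329) had 20.8 and 14.95 FPKM in K15-CrePGR KO, against 37.1 and 27.1 FPKM in WT. The groups did not overlap, and the log2 difference was -0.81 ± 0.25 (SE, 95% interval -1.48 to -0.14; limma adjusted p = 0.243). Elsewhere Klf5 hardly differed, with 23.4 FPKM in cKO against 23.1 FPKM in Het Shh-CreER TACs and 35.6 FPKM in cKO against 38.0 FPKM in Het HFSCs.

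Klf4 (mm9 chr4:55540012-55545347) was lower in each deleted group by a like amount, with log2 differences of -0.48 in HFSCs, -0.43 in Shh-CreER TACs and -0.41 in K15-CrePGR TACs. It was at 362 FPKM in cKO against 504 FPKM in Het HFSCs, and at 26.7 FPKM in cKO against 36.4 FPKM in Het Shh-CreER TACs. Its K15-CrePGR values were 52.04 and 26.3 FPKM in KO, against 76.4 and 31.8 FPKM in WT. These groups overlapped, since samples of 1 group differed up to 2.40-fold (SE 0.55, limma adjusted p = 0.718). The difference turned to 0.21 without WT 52 and to 0.07 without KO 84.

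Of the grainyhead-like genes, Grhl1 (mm9 chr12:25257151-25302329), a regulator of desmosomal cadherin genes needed for hair anchorage, was lower in the deleted group of every table. It was at 54.6 FPKM in cKO against 122 FPKM in Het Shh-CreER TACs (log2 difference -1.14) and at 34.0 FPKM in cKO against 56.1 FPKM in Het HFSCs (-0.71). In K15-CrePGR TACs it had 60.3 and 67.3 FPKM in KO, against 81.1 and 95.3 FPKM in WT. The groups did not overlap (log2 difference -0.46 ± 0.17, SE, 95% interval -0.90 to -0.01; limma adjusted p = 0.28).

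Grhl3 (mm9 chr4:135097358-135129583), the grainyhead-like gene best known for barrier formation, was also lower in each deleted group. It was at 12.0 FPKM in cKO against 20.8 FPKM in Het HFSCs (log2 difference -0.74), and at 13.8 FPKM in cKO against 15.8 FPKM in Het Shh-CreER TACs (-0.18). In K15-CrePGR TACs it had 9.37 and 20.4 FPKM in KO, against 21.8 and 23.9 FPKM in WT. KO 84 lay close to the WT samples and KO 64 well below them. The log2 difference of -0.68 (SE 0.38, limma adjusted p = 0.412) was -0.16 without KO 64 and -1.20 without KO 84.

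Grhl2 (mm9 chr15:37161675-37293324), which keeps genes of adherens and tight junctions active, had the smallest mean difference of the 9 over the 3 tables (0.17 on the log2 scale, sign ignored). It had 27.6 and 25.4 FPKM in K15-CrePGR KO, against 22.2 and 25.4 FPKM in WT, with a log2 difference of 0.15 (95% interval -0.25 to 0.56, limma adjusted p = 0.614). Without WT 52 it was 0.06, without KO 64 0.09 and without WT 57 0.25. It was at 29.6 FPKM in cKO against 32.7 FPKM in Het Shh-CreER TACs, and at 35.3 FPKM in cKO against 29.9 FPKM in Het HFSCs. With Grhl1 and Grhl3 lower in each deleted group, Grhl2 made up more of the summed level of the 3 grainyhead-like genes there. Its share was 43.4% in cKO against 28.0% in Het HFSCs, and 30.3% in cKO against 19.2% in Het Shh-CreER TACs. In K15-CrePGR TACs its share was 28.4% and 22.4% in KO, against 17.7% and 17.6% in WT. The antisense gene Gm16136, which overlaps Grhl2, had an entry of its own at 63.2 and 132 FPKM in KO and 90.4 and 110 FPKM in WT, so the Grhl2 values of that table depend on how reads were assigned.

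The AP-2 genes parted by table. Tfap2c (mm9 chr2:172375092-172384122) was at 83.6 FPKM in cKO against 30.1 FPKM in Het Shh-CreER TACs, a log2 difference of 1.44, larger in size than that of 97.6% of genes there. In K15-CrePGR TACs it had 33.6 and 39.3 FPKM in KO, against 39.2 and 29.3 FPKM in WT. These groups overlapped and the log2 difference was 0.10 (95% interval -0.45 to 0.65, limma adjusted p = 0.82), below 0 without WT 57 (-0.10) and without KO 84 (-0.0097). In HFSCs it was at 29.7 FPKM in cKO against 23.7 FPKM in Het (0.31). The difference between the TAC tables was not tested.

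Tfap2a (mm9 chr13:40809114-40834062) was at 110 FPKM in cKO against 88.1 FPKM in Het Shh-CreER TACs (0.32) and at 43.7 FPKM in cKO against 34.2 FPKM in Het HFSCs (0.34). It had 48.7 and 50.6 FPKM in K15-CrePGR KO, against 49.2 and 40.3 FPKM in WT (0.15, limma adjusted p = 0.639). That difference was 0.01 without WT 57 and 0.30 without WT 52. In Shh-CreER TACs Tfap2b, another AP-2 gene, was higher too, at 51.1 FPKM in cKO against 21.1 FPKM in Het. It was lower in the other tables, with 26.2 FPKM in cKO against 60.1 FPKM in Het HFSCs, and 17.9 and 15.1 FPKM in KO against 29.8 and 23.5 FPKM in WT K15-CrePGR TACs (limma adjusted p = 0.23).

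**Figure D3:**
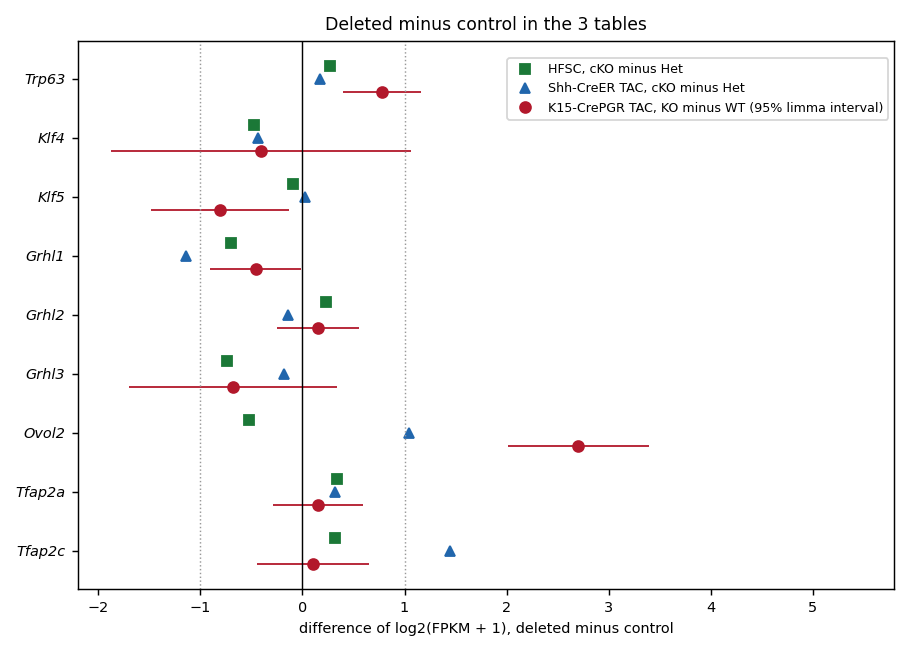
Difference of log2(FPKM + 1) between deleted and control libraries for each factor: squares, HFSC; triangles, Shh-CreER TACs; circles with 95% limma intervals, K15-CrePGR TACs. Dotted lines mark 2-fold. Grhl1, Grhl3 and Klf4 lay below 0 in all 3 tables, Trp63, Tfap2a and Tfap2c above, and Ovol2 ran between -0.52 and 2.70.

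Counted by sign alone, 3 factors (Trp63, Tfap2a and Tfap2c) were higher and 3 (Klf4, Grhl1 and Grhl3) lower in the deleted group of all 3 tables. Of 10045 genes measured in all tables, 16.7% were higher and 12.8% lower in all 3. The tables share no library. In K15-CrePGR TACs the sign of Klf4 turned without WT 52 or without KO 84, and that of Tfap2c without WT 57 or without KO 84. The difference of Tfap2a there was small beside the spread of samples, and the other tables have no spread to set beside it.

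The order of the levels also differed between cell types. In HFSCs Klf4 and Trp63 were the top pair, above every other factor, in both cKO and Het. In Shh-CreER TACs Trp63 led in both, followed by Tfap2a (110 FPKM) and Tfap2c (83.6 FPKM) in cKO and by Grhl1 (122 FPKM) and Tfap2a (88.1 FPKM) in Het. In K15-CrePGR KO samples Trp63 (143 ± 1.38 FPKM, mean ± SD, n = 2) stood apart from Grhl1 (63.8 ± 4.96 FPKM) and Grhl1 from Tfap2a (49.7 ± 1.32 FPKM). The ranges of Tfap2a, Klf4 and Tfap2c overlapped in turn there, as did those of Klf5, Ovol2 and Grhl3. In WT samples Grhl1 (88.2 ± 10.0 FPKM) and Trp63 (82.8 ± 3.67 FPKM) overlapped at the top, and Ovol2 (1.80 ± 0.0788 FPKM) was apart from all others at the bottom. Levels across tables were normalized separately, so only the order within a library is compared.

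The genes whose 3 differences lay nearest to those of a factor were taken among 7424 genes averaging 5 FPKM or more in each table, by Euclidean distance on the log2 scale. Nearest to Ovol2 were Cav1, the gene of the membrane protein caveolin, Angptl2 and Acsbg1 (distances 0.36, 0.41 and 0.42). Nearest to Grhl1 were Crybg2, Cdkn1a and Plcd1 (0.15, 0.25 and 0.25), and nearest to Tfap2c were Cdcp1, Slc26a2 and Acsf2 (0.23, 0.29 and 0.33). Cdkn1a encodes a cyclin-dependent kinase inhibitor and Plcd1 a phospholipase of the hair follicle. With 3 differences per gene, 2 of them from single libraries, such likeness is a description only.

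Other genes of the epidermal programme were read from 6 lists. The lists share genes, so their counts are not independent. Ovol1, for example, is listed with the other regulators, the family relatives and the genes under grainyhead control. For other regulators of epidermal fate (29 genes) the median difference was -0.06 in HFSCs, 0.17 in Shh-CreER TACs and 0.00 in K15-CrePGR TACs. In HFSCs 3 of 29 were at least 2-fold higher and 1 lower, against 5.92% and 4.6% of genes, with Uhrf1 (27.2 FPKM in cKO against 5.76 FPKM in Het), a DNA methylation factor of dividing cells, and Barx2 (230.2 against 92.7 FPKM) higher. In Shh-CreER TACs 1 of 27 was higher, Barx2 (54.4 FPKM in cKO against 16.6 FPKM in Het), and 3 lower, with Prdm1 (1.36 against 12.1 FPKM) and Ovol1 among them, against 2.67% and 2.77% of genes. Prdm1 ran the other way in K15-CrePGR TACs, with 7.21 and 2.13 FPKM in KO against 1.27 and 1.79 FPKM in WT (limma adjusted p = 0.388), a table in which it was named after its values were seen. In K15-CrePGR TACs none of 25 passed limma's adjusted threshold. Barx2 had 20.0 and 20.4 FPKM in KO against 8.74 and 4.77 FPKM in WT (limma adjusted p = 0.143). The nuclear receptor genes Vdr (63.05 and 63.18 FPKM in KO against 26.5 and 29.3 FPKM in WT, limma adjusted p = 0.0917) and Rxra (69.7 and 79.97 against 30.7 and 34.2 FPKM, adjusted p = 0.1001) were likewise above WT in both KO samples. That held for 10 of the 25, against 26.8% of all genes. Both KO samples lay below WT for 2, Ovol1 among them, against 27.5% of all genes.

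Relatives of the 9 in the p53, Klf, grainyhead, Ovol and AP-2 families differed by table. In HFSCs 4 of 17 were at least 2-fold lower in cKO and none higher, against 4.6% and 5.92% of genes: Klf3 (30.6 FPKM in cKO against 74.0 FPKM in Het), Klf15 (6.13 against 14.4 FPKM), Ovol1 and Tfap2b. In Shh-CreER TACs 3 of 18 were higher, with Trp73, the p73 gene (21.8 FPKM in cKO against 6.998 FPKM in Het), and Tfap2b among them, and 1 lower, Ovol1, against 2.67% and 2.77% of genes. In K15-CrePGR TACs none of 17 passed the adjusted threshold. There Klf2 had 36.3 and 6.32 FPKM in KO against 5.34 and 1.25 FPKM in WT (limma adjusted p = 0.339), so that KO 84 lay barely above WT 52.

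Genes under p63 control (28 listed) had median differences of -0.01 in HFSCs and -0.06 in Shh-CreER TACs. In K15-CrePGR TACs the median was 0.50, against -0.03 over all genes. The list was not divided into genes that p63 raises and genes that it lowers. The sign of a median or of a single gene is therefore no measure of p63 activity. In K15-CrePGR TACs both KO samples were above both WT samples for 14 of 27 and below for 7, against 26.8% and 27.5% of all genes, and 7 were at least 2-fold higher, against 10.1% of all genes. None passed the adjusted threshold. The basal keratin Krt14 had 405 and 556 FPKM in KO against 139 and 84.04 FPKM in WT (limma adjusted p = 0.114). The laminin gene Lamb3 (13.4 and 18.6 FPKM in KO against 1.54 and 1.25 FPKM in WT, adjusted p = 0.0734) and the integrin gene Itgb4 (23.3 and 14.0 against 3.66 and 6.91 FPKM, adjusted p = 0.175) ran the same way. Among those averaging 5 FPKM or more, the largest differences in HFSCs were lower Evpl (25.4 FPKM in cKO against 67.2 FPKM in Het), Dst (25.1 against 53.3 FPKM) and Lamb3 (123 against 239 FPKM) and higher Bmp7 (46.5 against 24.6 FPKM). In Shh-CreER TACs they were lower Cdkn1a (65.1 FPKM in cKO against 167 FPKM in Het), Sfn (117 against 240 FPKM), Hes1 (87.8 against 164 FPKM) and Fgfr3 (25.5 against 43.8 FPKM).

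Genes under grainyhead control had medians of -0.43 in HFSCs, -0.07 in Shh-CreER TACs and -0.12 in K15-CrePGR TACs. In HFSCs 4 of 20 were at least 2-fold lower, against 4.6% of genes, and 1 higher, against 5.92%. The transglutaminase gene Tgm1 (8.41 FPKM in cKO against 23.4 FPKM in Het) and the claudin gene Cldn23 (4.85 against 18.9 FPKM) were lower and Arhgef19 (40.9 against 16.4 FPKM) was higher. In Shh-CreER TACs 3 of 18 were lower, against 2.77% of genes, the protease inhibitor gene Spint1 (39.6 FPKM in cKO against 160 FPKM in Het), Cldn4 (39.2 against 86.5 FPKM) and Ovol1. In K15-CrePGR TACs 9 of 18 lay below WT in both KO samples and 5 above, against 27.5% and 26.8% of genes, 4 were at least 2-fold lower, against 2.55% of genes, and none passed the adjusted threshold. Cldn4 had 25.2 and 18.3 FPKM in KO against 89.6 and 53.7 FPKM in WT (limma adjusted p = 0.142). Spint1 had 77.1 and 72.5 FPKM in KO against 175 and 139 FPKM in WT (adjusted p = 0.13), and Tgm1 5.77 and 2.82 against 11.7 and 11.1 FPKM (adjusted p = 0.196).

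Of 9 mesenchymal genes that Ovol factors restrain, 3 passed the filter in HFSCs and 6 in Shh-CreER TACs, and none of these differed 2-fold. In K15-CrePGR TACs all 6 past the filter were above WT in both KO samples, against 26.8% of genes, and 5 were at least 2-fold higher, against 10.1% (median 1.49). None passed the adjusted threshold. Vim had 235 and 70.3 FPKM in KO 64 and KO 84 against 26.4 and 18.2 FPKM in WT (limma adjusted p = 0.197), Fn1 89.4 and 22.4 against 12.4 and 17.3 FPKM, and Snai2 18.6 and 15.8 against 4.89 and 6.78 FPKM. KO 64 was the higher KO sample for each of these, and Ovol2 was higher in KO 84. Of the epithelial lists, bulge and epidermal marker sums were also higher in KO 84 (678 and 896 FPKM) than in KO 64 (554 and 497 FPKM). Those of matrix and sebaceous markers were higher in KO 64 (1340 and 435 FPKM) than in KO 84 (1016 and 413 FPKM). Markers of other cells also stood out in KO 64: fibroblast genes summed to 1508 FPKM in KO 64 and 467 FPKM in KO 84, against 405 and 430 FPKM in WT. Immune genes summed to 1202 and 213 FPKM in KO against 140 and 34.3 FPKM in WT, with Cd207 listed at 0 in KO 84 and both WT samples. Endothelial genes summed to 25.4 and 2.99 FPKM in KO against 2.39 and 1.17 FPKM in WT, smooth muscle to 130 and 76.2 against 22.005 and 20.6 FPKM, and melanocyte genes to 121 and 39.6 against 27.7 and 25.5 FPKM. Past the filter, 6 of 7 fibroblast, 5 of 5 immune and 2 of 3 endothelial genes lay above WT in both KO samples. So did 4 of 4 smooth muscle and 6 of 6 melanocyte genes. For all genes the share was 26.8%. In Shh-CreER TACs fibroblast genes summed to 955 FPKM in cKO and 813 FPKM in Het, and melanocyte genes to 25.3 and 95.6 FPKM. The part of all these markers in the results was not tested.

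Markers of epithelial regions differed between the groups as well. Bulge markers summed to 554 and 678 FPKM in K15-CrePGR KO against 177 and 234 FPKM in WT, with Krt24 at or near 0 and 6 of 6 past the filter above WT in both KO samples. Markers of interfollicular and infundibular epidermis summed to 497 and 896 FPKM in KO against 75.2 and 52.6 FPKM in WT, and sebaceous markers to 435 and 413 against 366 and 348 FPKM. Of these lists 5 of 8 epidermal and 5 of 7 sebaceous genes lay above WT in both KO samples. Among all genes 26.8% did, a share that also applies to the bulge markers. Skeletal muscle markers summed to 38.5 and 32.3 FPKM in KO against 46.3 and 27.6 FPKM in WT. In Shh-CreER TACs the epidermal and infundibular markers summed to 800.5 FPKM in cKO against 182 FPKM in Het. Only 3 of 8 were at least 2-fold higher and 1 was lower (median 0.33), against 2.67% and 2.77% of all genes. Sebaceous markers summed to 373 FPKM in cKO against 185 FPKM in Het (7 of 9 higher, none lower) and skeletal muscle markers to 31.3 against 154 FPKM. In HFSCs the epidermal and infundibular sum was 3741 FPKM in cKO against 7627 FPKM in Het. There 3 of 8 genes were lower by 2-fold or more and 1 was higher (median -0.25), against 4.6% and 5.92% of all genes. The sum of sebaceous markers was 178 FPKM in cKO against 536 FPKM in Het (7 of 9 lower, none higher). Smooth muscle markers there summed to 96.2 against 11.7 FPKM and immune markers to 122 against 303 FPKM. The part of these differences in the levels of the 9 factors was not tested.

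Terminal differentiation and barrier genes were lower in cKO HFSCs, where 15 of 25 were at least 2-fold lower, against 4.6% of all genes, and 1 higher (median -1.21). Loricrin (Lor) was at 42.0 FPKM in cKO against 1119 FPKM in Het and Alox12b, a lipoxygenase of barrier lipids, at 4.36 against 28.4 FPKM. Lor, Krt1, Krt10, Flg and Ivl also belong to the epidermal and infundibular markers above, so these lists are not independent. The part of the mix of cells in these differences was not tested. In Shh-CreER TACs 2 of 20 were higher and 2 lower (median -0.10), against 2.67% and 2.77% of genes, with the protease gene Klk7 at 21.0 FPKM in cKO against 5.31 FPKM in Het and Tgm3 at 6.80 against 34.3 FPKM. In K15-CrePGR TACs 9 of 19 were at least 2-fold higher and 4 lower (median 0.85), against 10.1% and 2.55% of genes. Both KO samples lay above WT for 8 and below for 5, against 26.8% and 27.5%, and none passed the adjusted threshold. The suprabasal keratin Krt10 had 141 and 40.8 FPKM in KO against 21.2 and 10.3 FPKM in WT (limma adjusted p = 0.24), and Klk7 18.4 and 20.0 against 5.20 and 3.11 FPKM (adjusted p = 0.0921). Tgm3 had 21.0 and 7.11 FPKM in KO against 30.1 and 34.3 FPKM in WT (adjusted p = 0.296).

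**Figure D4:**
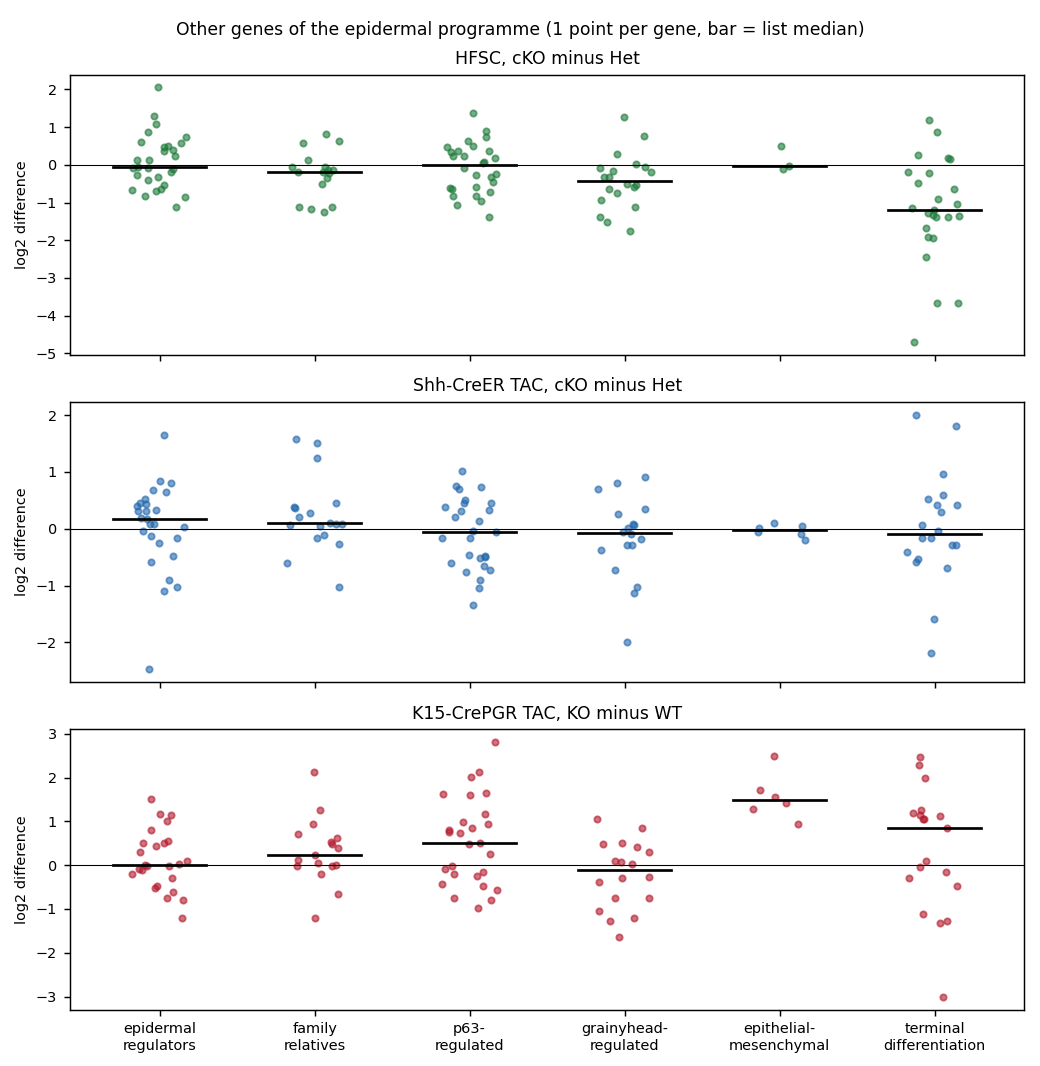
Difference of log2(FPKM + 1), deleted minus control, of the genes of 6 lists in HFSCs, Shh-CreER TACs and K15-CrePGR TACs (top to bottom), 1 point per gene past the filter, with a bar at the list median. Terminal differentiation genes had a median of -1.21 in HFSCs and 0.85 in K15-CrePGR TACs, and p63-regulated genes one of 0.50 in K15-CrePGR TACs.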

How the data were processed

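RNA was measured in 8 libraries. The submitters' processing notes name TopHat, Cufflinks and build mm9, without versions; strand and depth are not stated either. The headers name no unit, and the deposited values were taken as FPKM made by the authors from the naming of Cufflinks and from their range. Each of 3 separately normalized tables has 1 column per library, matched to a sample by its name. Among K15-CrePGR loci, 8904 of 45930 carry no name and were left out. These unnamed loci held 78.4% to 79.0% of the summed FPKM of each K15-CrePGR library. A symbol listed more than once kept its entry with the highest mean, and older symbols were matched through the RefSeq table of GRCm38.p6.

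Where few reads were counted, relative depth was read from the commonest ratio between low values (below 0.3 FPKM): 0.854 for HFSC cKO against Het, 1.00 for the Shh-CreER pair, and 1.08 (KO 64), 0.911 (KO 84) and 1.13 (WT 57) times WT 52. No count model was fitted.

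Differences are of log2(FPKM + 1), deleted minus control, for genes averaging 1 FPKM or more, and understate the change of low genes. The K15-CrePGR table was tested with limma 3.58.1 in R 4.3.3 (intensity trend, two-sided, Benjamini-Hochberg over all genes, threshold 0.05), checked on simulated data. Simulated shifts of 2-fold were detected at that threshold for only 11 out of 67 genes. Detection rose to 58 out of 67 at 4-fold and 64 out of 66 at 8-fold. In addition, 16 genes without a simulated shift passed. These rates come from independent simulated noise and need not hold for the real samples, where 12.7% of genes differed 2-fold and 0.0663% passed. Missing the threshold is therefore weak evidence that a gene did not differ. With 1 library per group, the other tables have no test or replicate check, and 2-fold differences were counted. The 9 genes, the lists and the rules were chosen with earlier results of these data known. All 9 genes are reported; of each list up to 4 genes per table with the largest difference, averaging 5 FPKM or more, could be named, and some of these are not reported here. Other pseudocounts, filters, scalings and entries per symbol, limma without the trend and leaving out each K15-CrePGR library were tried. Scripts ran in Python 3.11.15 with pandas 2.3.3, numpy 2.4.6 and matplotlib 3.10.9.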

Additional observations from a re-analysis of the deposited data

Results flagged for a closer look

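Factors whose difference ran one way in stem cells and the other in either set of TACs were picked out. For Ovol2, the log2 difference of Shh-CreER TACs exceeded that of HFSCs by 1.56, and that of K15-CrePGR TACs exceeded it by 3.23. Klf5 differed by 0.11 between Shh-CreER TACs and HFSCs and Grhl2 by -0.37, both from values close to 0. In K15-CrePGR TACs both ran the same way as in HFSCs: -0.81 against -0.09 for Klf5 and 0.15 against 0.23 for Grhl2. None of these differences between tables was tested, for want of replicates in HFSCs and Shh-CreER TACs.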

How the results depend on the processing

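None of the 9 factors passed limma's adjusted threshold in K15-CrePGR TACs under any of the 14 settings, and the adjusted p of Ovol2 ranged from 0.0678 to 0.652. The count of genes passing was 9; it was 21 with a pseudocount of 0.1 FPKM, 5 with no filter, 15 with a filter of 5 FPKM and 14 with unnamed loci included, a setting chosen after seeing the data. Leaving out each library in turn, where the lone sample is assumed to vary like the other group, gave 0 to 23 genes. Over the libraries left out, the log2 difference of Klf4 ran from -1.02 to 0.21 and that of Tfap2c from -0.10 to 0.30. Without KO 84 the log2 differences of Klf4 and Tfap2c turned to 0.07 and -0.0097, that of Klf4 turned to 0.21 without WT 52, and that of Tfap2c to -0.10 without WT 57. The log2 difference of Ovol2 ranged from 1.71 to 3.19 and that of Trp63 from 0.70 to 0.95. Genes at least 2-fold different in HFSCs numbered 580 with a pseudocount of 5 FPKM and 854 with a filter of 5 FPKM, against 1284, and in Shh-CreER TACs 292 and 427, against 668. No factor differed 2-fold in HFSCs under any setting, and 2 or 3 did in Shh-CreER TACs. There the difference of Klf5 turned from 0.02 to -0.0096 under median scaling. No paired analysis was possible because the groups share no replicate numbers in the labels. FPKM carry no counts, so counting error could not be set beside the values.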
